A study of Mus musculus with 3 samples.

Results

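The genes described here encode enzymes and readers of chromatin and of DNA methylation: lysine and arginine methyltransferases, demethylases, acetyltransferases, deacetylases, the de novo DNA methyltransferases, the TET dioxygenases, bromodomain and chromodomain proteins, and subunits of remodelling complexes. They were taken by symbol, as probe sets that the platform annotation assigns to a single gene with a name beginning Kdm, Kmt, Setd, Setdb, Hdac, Sirt, Dnmt3, Tet, Prmt, Kat, Ezh, Brd, Chd, Smarc, Arid or Cbx. This gave 307 of 45101 probe sets and 123 of 18194 genes, and the rule uses no measured value. Expression was measured in 3 dendritic cell (DC) subsets of mouse spleen: plasmacytoid DC (pDC), CD11b+ conventional DC (cDC) and CD8+ cDC. The donors were naive C57bl/6 mice in every group, females 6 to 8 weeks old, with no allele or agent named in the labels. Magnetic beads first took T and B cells out of the spleen mononuclear fraction, and the 3 subsets were sorted from the remainder by flow cytometry. RNA from 5 to 8 mice was pooled for each subset, 20 ng was amplified, and each subset was hybridised to 1 Affymetrix array. Pools, sorts and arrays therefore cannot be told apart from the cell types, there is no spread between samples, and no p-value is given.

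Histone tails carry methyl and acetyl groups that writers such as the Kmt, Setd, Kat and Prmt enzymes add, that erasers such as the Kdm, Hdac and Sirt enzymes remove, and that readers such as Brd and Cbx proteins bind. Polycomb repression joins an Ezh methyltransferase to Cbx readers of its mark, while Dnmt3 enzymes place new methyl groups on cytosine and Tet enzymes oxidise them. Dendritic cells develop from bone marrow progenitors under lineage transcription factors that recruit such enzymes, and Dnmt3a and Tet2 are among the genes best known for roles in blood cell differentiation. Not every member acts on histones: Sirt3, Sirt4 and Sirt5 are mitochondrial enzymes, Setd3 methylates actin, and Hdac6 deacetylates tubulin in the cytoplasm.

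Values are the deposited intensities, printed as signals. A level of 111, the 95th percentile of 87 probe sets for olfactory and other sensory receptors, served as background. Where 3 signals follow a gene, they stand in the order pDC, CD11b+ cDC, CD8+ cDC. Each gene is given at its brightest probe set, differences are log2 or fold between arrays after lower values were raised to that level, and a fold against the level is written as "at least". A gene was called higher where the fold reached 2 and the brighter signal exceeded background. Most marker genes followed the labels. Siglech read 106310 on the pDC array and lay at background on the others. Itgam read 2786 on the CD11b+ cDC array only, and Cd8a was brightest on the CD8+ cDC array at 203567. Of 11 pDC markers, 11 were higher in pDC than in each other subset. Of 9 CD11b+ cDC markers, 7 were higher in CD11b+ cDC than in pDC and 8 than in CD8+ cDC. Cd4 was instead higher in pDC, at 37302 against 14501 in CD11b+ cDC. Of 9 CD8+ cDC markers, 8 were higher in CD8+ cDC than in pDC and 7 than in CD11b+ cDC. Irf8 was instead brightest in pDC, at 646349 against 534491 in CD8+ cDC. Signals of some other cell types were highest on the CD11b+ cDC array. The summed signal of 7 neutrophil markers was 17142 there against 2920 in pDC and 1621 in CD8+ cDC, with 5 of 7 higher there than in pDC and 5 than in CD8+ cDC. That of 9 macrophage and monocyte markers was 225456 against 41185 and 99132, with 7 of 9 higher there than in pDC and 5 than in CD8+ cDC. Of 6 T cell markers, 4 (Cd3e, Cd3d, Cd3g and Thy1) lay at background on all 3 arrays, while Cd5 read 344, 2832 and 432 and Lat 444, 188 and 267. Of 7 B cell markers, Cd79a, Pax5 and Fcer2a lay at background, while Ms4a1 read 223, 11046 and 19147, Cd79b 10103, 4026 and 381, and Cr2 509 in CD11b+ cDC only, with Ighm bright on every array. Of 29 cell cycle genes, 29 were lower in pDC than in CD11b+ cDC (median log2 difference -4.28), and 26 were lower than in CD8+ cDC (-3.47). The signal ratio of 3′ to 5′ control probe sets for Actb, a measure of RNA integrity and amplification, was 5.71 on the pDC array, 2.91 with CD11b+ cDC and 4.08 with CD8+ cDC. For Gapdh the ratio was larger, at 16.2, 9.68 and 17.6 in the same order, highest with CD8+ cDC. The part of these differences in the results below was not tested. Hybridization spike-ins differed by up to 1.04 (log2) between arrays. Scaling on them moves the median of all genes to -0.33 when CD11b+ cDC are subtracted from pDC. It becomes 0.66 when CD8+ cDC are subtracted, and -0.99 for CD8+ against CD11b+ cDC, so every difference here is relative to the bulk of genes. The distributions nearly coincide: from the 1st to the 99th percentile, signals at the same percentile differ by at most 0.07 (log2) between arrays. A step that equalises arrays after MAS5 is not named in the sources used here, and whether one was applied was not tested.

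Most of these genes were expressed in all 3 subsets, although in sorted pools fewer cells with a transcript and less transcript per cell cannot be told apart. A signal above background was found for 112 of the 123 genes (91.1%) on at least 1 array and for 110 on all 3, against 60.5% of all genes on at least 1. Of genes above background on any array, 98.2% of members and 89.2% of all genes were above it on all 3. Of the 11 members at background on every array, Cbx2, Chd5, Dnmt3l, Kdm4d, Kdm5d, Prmt8, Sirt6, Smarca1, Smarcd3 and Tet3 read between 56.0 and 89.7 at their brightest probe sets, and Cbx3 read 33.1 to 33.2. The male-specific Y-linked Kdm5d is absent from the female donors' genome. The value for Cbx3, a reader of heterochromatin, rests on 1 probe set assigned to it alone, as do those of the others except Cbx2 and Kdm5d. A single probe set at background cannot tell an absent transcript from one that the probe set fails to detect. A range of at least 2-fold over the 3 arrays was seen for 38 of the 112 genes, where 41.3% of all measured genes had one. A range of 4-fold was seen for 10, against 19.4% of all genes, and one of 10-fold for 2, Arid5b and Tet1, against 9.79%. The median range was 0.83 (log2), beside 0.80 for all genes, so the middle of both distributions lay close together while fewer members than genes overall had wide ranges.

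**Figure D1:**
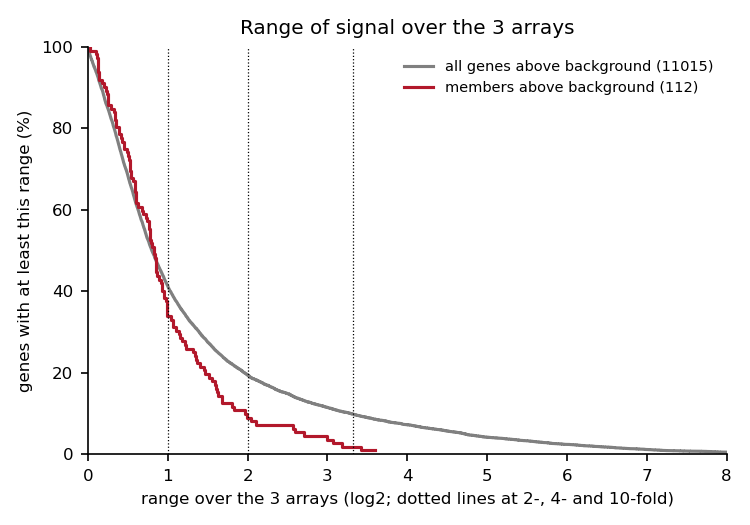
Share of genes (percent, vertical) whose log2 range over the 3 arrays reaches the value on the horizontal axis, for all 11015 genes above background on any array (grey) and the 112 members among them (red). The curves meet near their medians, 0.83 and 0.80, and lie apart by 2-fold, which 33.9% of members and 41.3% of all genes reach. The gap is still there at 4-fold, where 8.93% of members and 19.4% of all genes remain.

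Compared with CD11b+ cDC, pDC showed more of Hdac5, Arid5a, Cbx6, Tet1 and Setd4, and less of Hdac4, the demethylase gene Kdm7a, the Kmt2b methyltransferase and the remodeller gene Chd3. In this comparison 22 of 112 measured members differed 2-fold (19.6%), where 29.3% of all genes did. Of these, 14 were higher in pDC, where 15.0% of all genes were, and 8 were higher in CD11b+ cDC, where 14.3% were. The members' shares were 12.5% and 7.14%, and their median difference was -0.01 (log2) beside 0.01 for all genes. The largest differences toward pDC were Arid5a (8.41-fold), Cbx6 (5.78-fold), Tet1 (4.34-fold), Setd4 (4.11-fold), Hdac5 (4.02-fold), Sirt3 (3.51-fold), the demethylase gene Kdm1b (3.21-fold), Arid3b (3.18-fold) and Brd3 (3.03-fold), followed by Sirt5 with 937 against 312. Toward CD11b+ cDC they were Hdac4 (7.95-fold), Kdm7a (4.32-fold), Kmt2b (3.48-fold), Chd3 (3.21-fold), Kdm6b (2.75-fold), Ezh2 (2.56-fold), Tet2 (2.48-fold) and Hdac6 (2.28-fold). With spike-in scaling 10 were higher in pDC and 17 in CD11b+ cDC, so pDC held 63.6% of the members' differences on the deposited scale and 37.0% on the other, against 51.2% and 33.5% over all genes.

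Compared with CD8+ cDC, pDC again showed more Tet1, Hdac5, Arid5a and Cbx6, and in addition more Arid5b and the Polycomb reader gene Cbx7. Of 112 measured members, 29 differed (25.9%), where 30.8% of all genes did. Of these, 19 were higher in pDC, where 16.0% of all genes were, and 10 were higher in CD8+ cDC, where 14.8% were. The shares were 17.0% and 8.93%, with a median of 0.25 (log2) beside 0.00 for all genes. The largest toward pDC were Tet1 (10.7-fold), Arid5b (9.30-fold), Hdac5 (9.08-fold), Arid5a (7.23-fold), Cbx6 (6.03-fold), Cbx7 (at least 5.94-fold), Sirt3 (3.90-fold), the remodeller gene Chd6 (3.05-fold), Brd3 (2.87-fold) and Hdac10 (2.75-fold). Toward CD8+ cDC they were Hdac6 (2.94-fold), Hdac11 (2.81-fold), Hdac4 (2.70-fold), Ezh2 (2.65-fold), Kdm6b (2.65-fold), the histone H4 methyltransferase gene Kmt5a (2.54-fold), Kdm7a (2.27-fold), Kdm2b (2.26-fold), Arid4a (2.21-fold) and Chd3 (2.05-fold). All 10 stayed under 3-fold, and with spike-in scaling 0 of them reached 2-fold, though each kept its direction, while 47 members were then higher in pDC. The share of the members' differences held by pDC thus went from 65.5% to 100%, and that of all genes from 51.9% to 78.0%.

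The conventional subsets differed in fewer members, as they did in fewer of all genes. Of 111 measured, 18 differed (16.2%), where 20.1% of all genes did. Of these, 5 were higher in CD8+ cDC, where 9.86% of all genes were, and 13 were higher in CD11b+ cDC, where 10.3% were. The shares were 4.50% and 11.7%, and the median was -0.05 (log2) beside 0.01. Hdac11 (6.51-fold), Arid3b (3.97-fold), Kdm3b (2.14-fold), Kdm1a (2.06-fold) and Setd4 (2.01-fold) were higher in CD8+ cDC. Higher in CD11b+ cDC were Arid5b (12.0-fold), the remodelling ATPase gene Smarca2 (3.56-fold), Cbx7 (at least 3.31-fold), Chd9 (3.08-fold), Chd6 (3.08-fold), Hdac4 (2.94-fold), Cbx5 (2.85-fold), Setd1b (2.55-fold), Tet1 (2.47-fold) and Tet2 (2.40-fold), followed by Kmt2b (2.34-fold), Hdac5 (2.26-fold) and the acetyltransferase gene Kat6a (2.09-fold). With spike-in scaling Hdac11 was the 1 member higher in CD8+ cDC, Kdm1a and Setd4 went to -0.00 and -0.03 (log2), and 63 members were higher in CD11b+ cDC. CD8+ cDC held 27.8% of the members' differences on the deposited scale and 1.56% on that scale, against 49.0% and 6.97% over all genes. The 3 comparisons share arrays, so a signal that stands out on 1 array appears in 2 of them.

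**Figure D2:**
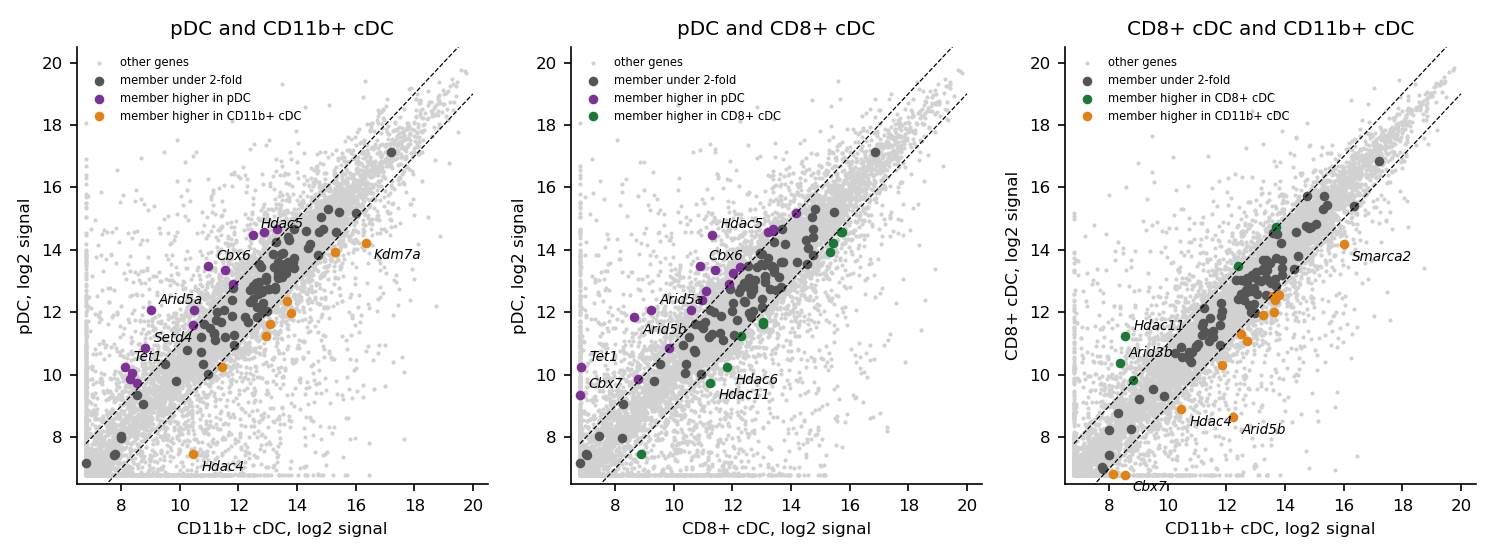
Log2 signals of each gene on the arrays of a pair, for genes above background on either array (grey) and members (dark grey under 2-fold, coloured by the array on which they were 2-fold higher); dashed lines mark 2-fold. Arid5a, Cbx6 and Hdac5 lie above the upper line in both panels with pDC, Hdac4 lies well below the lower line against CD11b+ cDC, and Arid5b lies far below it between the conventional subsets.

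**Figure D3:**
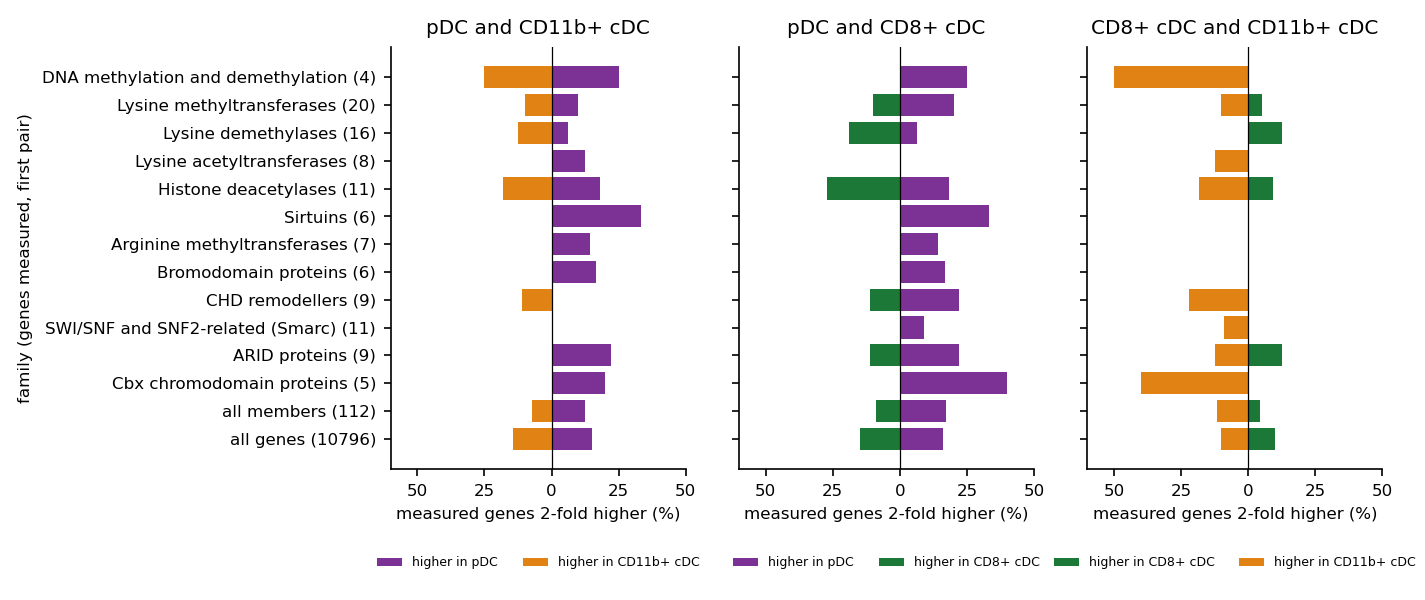
Percent of measured genes 2-fold higher on either array of a pair, by family, with all members and all genes below; numbers in brackets are genes measured in the first pair. Sirtuins, arginine methyltransferases and bromodomain proteins have bars toward pDC only, at 1 or 2 genes each, and no bar between the conventional subsets.

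At 4-fold over the brighter of the other 2 arrays, 4 of 112 members stood out on the pDC array, Hdac5, Cbx6, Arid5a and Tet1, where 4.28% of all measured genes did. With spike-in scaling 2 of the 4, Arid5a and Cbx6, kept that mark, and Hdac5 and Tet1 did not. With the 99th percentile as background, the mean over probe sets or the second probe set, 3 kept it and Tet1 did not. None stood out on the CD11b+ cDC array (2.03% of all genes) or the CD8+ cDC array (2.44%). At 4-fold below the dimmer of the other 2, the pDC array had 0 members (4.38% of all genes), the CD11b+ cDC array 0 (0.799%) and the CD8+ cDC array 1, Arid5b (1.38%). The promoter windows of these 5 genes, and of Kdm7a and Hdac4, which were lowest in pDC, are shown because the first 5 are the members 4-fold apart from both other arrays and the last 2 hold the largest differences toward CD11b+ cDC over pDC. Each is the 250 bases before the RefSeq start in GRCm38.p6, read 5′ to 3′ on the gene's strand, with capitals at every CANNTG (the E-box bound by helix-loop-helix factors such as Tcf4) and every CCAAT or its reverse complement ATTGG (the NF-Y box).
Hdac5 (chr11:102230173-102230422, minus strand): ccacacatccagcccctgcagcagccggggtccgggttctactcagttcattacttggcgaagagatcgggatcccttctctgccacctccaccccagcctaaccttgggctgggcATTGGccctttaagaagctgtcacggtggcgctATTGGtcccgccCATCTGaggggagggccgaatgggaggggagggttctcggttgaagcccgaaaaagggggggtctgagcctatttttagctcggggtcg
Cbx6 (chr15:79834334-79834583, minus strand): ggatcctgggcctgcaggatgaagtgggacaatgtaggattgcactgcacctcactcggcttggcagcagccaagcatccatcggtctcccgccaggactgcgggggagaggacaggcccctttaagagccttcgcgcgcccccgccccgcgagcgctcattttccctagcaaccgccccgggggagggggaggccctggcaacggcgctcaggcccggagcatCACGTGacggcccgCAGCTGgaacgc
Arid5a (chr1:36307483-36307732, plus strand): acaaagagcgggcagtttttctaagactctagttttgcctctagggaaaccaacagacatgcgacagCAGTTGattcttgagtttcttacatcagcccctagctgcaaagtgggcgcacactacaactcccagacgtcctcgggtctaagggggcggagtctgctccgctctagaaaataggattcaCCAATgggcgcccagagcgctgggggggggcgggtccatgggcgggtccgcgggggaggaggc
Tet1 (chr10:62887325-62887574, minus strand): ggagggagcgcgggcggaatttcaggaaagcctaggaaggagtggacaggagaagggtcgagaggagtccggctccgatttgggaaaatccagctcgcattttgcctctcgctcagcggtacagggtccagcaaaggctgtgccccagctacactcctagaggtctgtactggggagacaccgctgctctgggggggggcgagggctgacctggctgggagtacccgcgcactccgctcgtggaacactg
Arid5b (chr10:68278727-68278976, minus strand): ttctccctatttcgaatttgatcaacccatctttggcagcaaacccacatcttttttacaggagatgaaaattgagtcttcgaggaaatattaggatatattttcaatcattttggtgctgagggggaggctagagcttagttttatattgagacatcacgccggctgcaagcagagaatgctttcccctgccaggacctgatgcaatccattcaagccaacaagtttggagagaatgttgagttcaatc
Kdm7a (chr6:39206774-39207023, minus strand): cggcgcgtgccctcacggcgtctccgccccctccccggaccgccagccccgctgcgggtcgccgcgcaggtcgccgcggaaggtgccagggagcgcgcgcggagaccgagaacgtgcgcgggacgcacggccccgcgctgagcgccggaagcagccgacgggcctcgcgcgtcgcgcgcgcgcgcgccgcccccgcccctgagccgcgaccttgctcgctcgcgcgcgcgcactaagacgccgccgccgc
Hdac4 (chr1:92180342-92180591, minus strand): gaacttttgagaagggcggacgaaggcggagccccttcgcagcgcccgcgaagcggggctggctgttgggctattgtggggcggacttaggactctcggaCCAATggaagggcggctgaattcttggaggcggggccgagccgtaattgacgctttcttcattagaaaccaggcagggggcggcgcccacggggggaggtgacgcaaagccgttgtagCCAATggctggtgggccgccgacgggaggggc

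Hdac5 had 1 E-box, 89 bases before the start, and 2 NF-Y boxes. Cbx6 had 2 E-boxes, of which the one 26 bases before the start is also the Myc and Max form CACGTG, and Arid5a had 1 E-box and 1 NF-Y box. Hdac4 had 2 NF-Y boxes and no E-box, and the windows of Tet1, Arid5b and Kdm7a held neither motif. CANNTG occurs in 66.2% of all 32851 promoter windows of this length and in 54.7% of the 137 windows of 101 members in the table, and CCAAT in 33.8% and 34.3%. Over the windows of genes above background the shares are 57.8% for CANNTG and 35.3% for CCAAT. Searches on both strands for CACCTG and CACGTG, which are forms of CANNTG, and for GAGGAAGT (the PU.1 form of the ETS site), the interferon response element, the E2F forms TTTGGCGC and TTTCCCGC and the AP-1 site TGANTCA added no match in the 7 windows beyond the CACGTG of Cbx6. Those motifs occur in 17.2%, 6.02%, 2.44%, 2.98%, 0.417%, 0.895% and 6.75% of all windows, in the order named. The windows differ more in base composition. Kdm7a had 56 CpG dinucleotides and 82.0% G and C, Hdac4 had 23 and Cbx6 had 20, whereas Arid5b had 4 and 42.0% G and C. The median was 19.0 CpG over the members' windows, 15.0 over those of genes above background and 6.00 over all. A match describes these letters and no binding was measured.

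The TET and Dnmt3 genes showed different patterns. Tet1 read 1216 in pDC, 280 in CD11b+ and 113 in CD8+ cDC, the last value next to background. Its second measured probe set read 119, 118 and 123, so the pattern rests on 1 probe set. Tet2, the family member most often mutated in blood cancers, read 5256 in pDC, 13029 in CD11b+ and 5440 in CD8+ cDC, and was highest in CD11b+ cDC. Its second probe set had the same order with a smaller spread, 1808, 2285 and 2056. Dnmt3a read 4252, 8007 and 4059 in the same order of subsets, 1.88-fold and 1.97-fold above the others and so just under 2-fold. All 5 of its probe sets were brightest in CD11b+ cDC. The other 4 exceeded pDC there by 2.35-fold, 6.82-fold, 5.94-fold and 11.6-fold, and CD8+ cDC by 2.03-fold, 2.31-fold, 9.40-fold and 4.95-fold. Dnmt3b read 1771, 1227 and 1647, a range under 2-fold.

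Genes that maintain or read DNA methylation were counted together with Cxxc1, Cxxc5, Apex1 and the Gadd45 genes. Of these 17, 3 were higher in pDC and 3 higher in CD11b+ cDC in their comparison, and 1 and 3 in that of pDC with CD8+ cDC. Either way these are 35.3% and 23.5%, beside 29.3% and 30.8% of all genes. In the first pair Zbtb38, Cxxc5 and Gadd45a were higher in pDC, and Uhrf1, Gadd45b and Gadd45g in CD11b+ cDC. Cxxc5, a CXXC zinc finger protein, read 39521 in pDC, 478 in CD11b+ and 582 in CD8+ cDC. Uhrf1, which brings the maintenance enzyme to replicated DNA, read 910, 24236 and 14889, in the direction of the cell cycle genes given above. Dnmt1, that maintenance enzyme, read 8951, 14851 and 13380, under 2-fold in every pair. The stress gene Gadd45g read 327, 27875 and 20841.

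**Figure D4:**
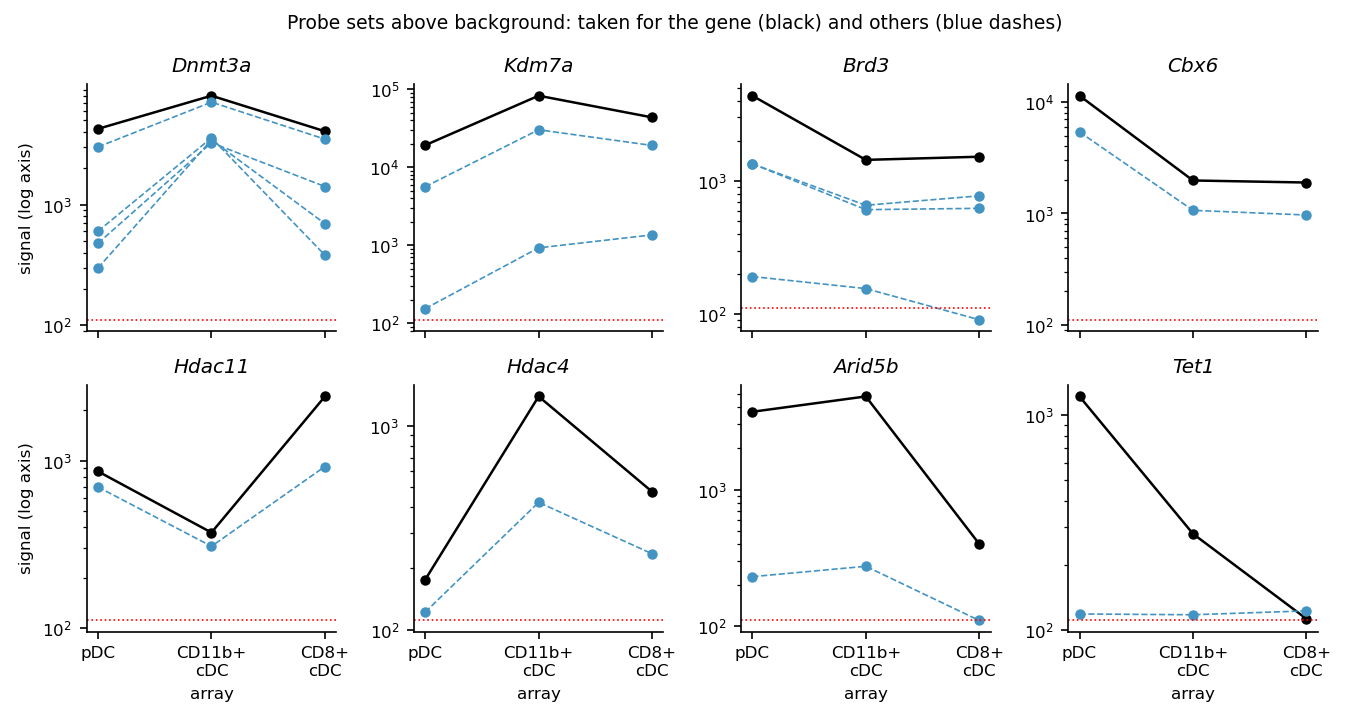
Signals (log axis, vertical) on the 3 arrays for every probe set above background of 8 members; the black line is the probe set taken for the gene, blue dashed lines the others, and the red dotted line the background level of 111. All 5 Dnmt3a probe sets peak in CD11b+ cDC, and the Cbx6 probe sets run nearly in parallel. Those of Hdac11 share an order but lie further apart in CD8+ cDC, and the dimmer Tet1 probe set stays flat near background.

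Ezh1 and Ezh2, alternative catalytic subunits of Polycomb repressive complex 2, went opposite ways. Ezh2, the form of dividing cells, read 15525 in pDC, 39813 in CD11b+ and 41080 in CD8+ cDC, and was 2.56-fold and 2.65-fold lower in pDC. Ezh1 read 15099, 9380 and 8135, 1.61-fold and 1.86-fold toward pDC, short of 2-fold. The cell cycle genes, given above, were lower in pDC as Ezh2 was, and their part in its value was not tested. The core partners Eed and Suz12 stayed under 2-fold in every pair. Among Polycomb Cbx readers, Cbx6 read 11441, 1980 and 1898, and a second probe set at 5402, 1068 and 969 gave nearly the same folds. Cbx7 read 661, 368 and 98, at background in CD8+ cDC, and its second probe set read 213 in pDC only. Cbx8 read 894, 936 and 642. Cbx6 was thus highest in pDC at both probe sets. The Cbx7 value in CD8+ cDC lies just under background, and its difference from pDC falls to 0.68 (log2) with the 99th percentile as background and to 0.94 at the second probe set, both under 2-fold. The difference from CD11b+ cDC is 0.00 under both. Cbx2 lay at background on every array. The heterochromatin readers followed another order. Cbx5, encoding HP1 alpha, read 2001, 3652 and 1280, highest in CD11b+ cDC, and Cbx1 read 13816, 15193 and 9469. Of 24 measured Polycomb partner genes, 1 was higher in pDC and 2 in CD11b+ cDC in that pair, and 2 were higher and 1 lower in pDC against CD8+ cDC. Either way this is 12.5% in both pairs, beside 29.3% and 30.8% of all genes. The largest difference was Phc1, a polyhomeotic scaffold subunit, which read 18456, 25685 and 3418 and was lowest in CD8+ cDC. Phf1, an accessory subunit of the Ezh complex, read 629, 296 and 204, highest in pDC. Aebp2, another, read 22738, 78378 and 36884, highest in CD11b+ cDC.

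Of 20 lysine methyltransferase genes, all measured, 2 were higher in pDC and 2 in CD11b+ cDC in that pair, 4 in pDC and 2 in CD8+ cDC in the next, and 1 in CD8+ cDC and 2 in CD11b+ cDC in the third. Either way these are 20.0%, 30.0% and 15.0%, beside 29.3%, 30.8% and 20.1% of all genes. Kmt2a to Kmt2d encode catalytic subunits of COMPASS complexes, whereas Kmt2e is a related PHD and SET domain protein. They did not share an order. Kmt2b read 4036 in pDC, 14036 in CD11b+ and 6004 in CD8+ cDC and was highest in CD11b+ cDC. Kmt2e read 24891, 20122 and 10708 and was lowest in CD8+ cDC. At their brightest probe sets Kmt2a, Kmt2c and Kmt2d stayed under 2-fold. All 4 Kmt2c probe sets were nevertheless lowest in CD8+ cDC. Kmt2c probe sets at 5142, 8492 and 3694 and at 3601, 5454 and 2435 were 2.30-fold and 2.24-fold higher in CD11b+ than in CD8+ cDC. The dimmest, at 482, 358 and 189, was 2.55-fold higher in pDC than in CD8+ cDC. Setd1b, another COMPASS catalytic subunit, read 6916, 9799 and 3838 and its second probe set 761, 961 and 328, both lowest in CD8+ cDC. Setd4, Setd6 and Setd7 were highest in pDC. Setd4 read 1863, 454 and 913 and 1525, 291 and 414 at its second probe set. Setd6 read 11333, 6918 and 4849, with pDC 1.64-fold over CD11b+ cDC. Setd7, which monomethylates histone and other substrates, read 26001, 10074 and 10577. Kmt5a, active in mitosis, read 3306, 5152 and 8384, and a second probe set gave larger folds against pDC, 2.62 for CD11b+ cDC and 4.13 for CD8+ cDC. Setdb1 and Setdb2, of heterochromatin, were lowest in pDC but under 2-fold. Setdb1 read 4589, 6299 and 8167. Setdb2 read 3696, 6292 and 6336. Of 13 COMPASS partners, 0 were higher in pDC and 2, Psip1 and Hcfc2, in CD11b+ cDC (2.85-fold and 3.14-fold), or 15.4% either way beside 29.3% of all genes. Of 14 other histone methyltransferase genes measured, Smyd1 alone differed between pDC and CD11b+ cDC (at least 2.41-fold higher in pDC), 7.14% beside 29.3% of all genes. Against CD8+ cDC, 3 were higher and 2 lower in pDC, 35.7% beside 30.8%. In the cDC pair 4 of 13 differed, 30.8% beside 20.1%, with 2 in each direction. Smyd2 had signals of 567, 1104 and 3354, with CD8+ cDC 5.91-fold above pDC.

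Of 16 measured demethylase genes, 1 was higher and 2 lower in pDC than in CD11b+ cDC, which is 18.8% either way beside 29.3% of all genes. Against CD8+ cDC, 1 was higher and 3 lower in pDC (4 of 16, beside 30.8% of all genes), and between the conventional subsets 2 were higher in CD8+ cDC (12.5% beside 20.1%). Kdm1b, a flavin-dependent demethylase, read 24261 in pDC, 7553 in CD11b+ and 9394 in CD8+ cDC. Its paralog Kdm1a read 21624, 13358 and 27454 and was lowest in CD11b+ cDC, and its second probe set had the same order. Kdm4a, Kdm4b and Kdm4c were brightest in pDC with ranges of 1.89-fold, 1.81-fold and 1.45-fold, all short of 2-fold. Kdm7a, which removes repressive methyl groups, read 19250, 83082 and 43794, and its other probe sets, at 5645, 30381 and 19100 and at 154, 928 and 1361, were also lowest in pDC. Kdm6b, an inducible demethylase of the Polycomb mark, read 3154, 8671 and 8374. Its other 2 probe sets were lowest in pDC as well but under 2-fold, at 1.42-fold to 1.88-fold. Its constitutive paralog Kdm6a read 12654, 10312 and 13044, without a difference. Kdm2b, a CpG island binding protein, read 24185, 41208 and 54564. Kdm3b read 6726, 5349 and 11465, highest in CD8+ cDC, and its second probe set 1235, 2133 and 2189. Immediate early genes, several of which are induced by handling and by activation, moved in the direction of Kdm6b and Kdm7a: of 17 measured, 13 were higher in CD11b+ cDC and 12 in CD8+ cDC than in pDC, with 2 the other way in each pair. Their part in these values was not tested. Kdm5a, Kdm5c and Kdm8 were nearly level, with ranges of 0.13, 0.23 and 0.02 (log2).

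Of 8 acetyltransferase genes, 12.5% differed between pDC and CD11b+ cDC, 0 between pDC and CD8+ cDC and 12.5% in the cDC pair, beside 29.3%, 30.8% and 20.1% of all genes. Kat6b was higher in pDC than in CD11b+ cDC, with signals of 3073 in pDC, 1382 in CD11b+ and 1917 in CD8+ cDC, and Kat6a was lowest in CD8+ cDC at 5941 beside 11362 and 12402. Kat2b, a subunit of the SAGA-type complexes, read 14527, 26956 and 27642, at 1.86-fold and 1.90-fold just below the rule, and Kat5 and Kat14 had ranges of 0.33 and 0.25 (log2). Of 22 measured acetyltransferase scaffolds and coactivators, 0 differed between pDC and CD11b+ cDC. Crebbp (2.07-fold) and Epc2 (2.25-fold) were higher in pDC than in CD8+ cDC, and Meaf6 (2.17-fold) was lower, 13.6% either way beside 30.8% of all genes.

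Among the deacetylases, the largest differences were in class IIa, the signal-responsive group that shuttles between cytoplasm and nucleus. Hdac5 read 23017 in pDC, 5731 in CD11b+ and 2535 in CD8+ cDC on its single probe set. Hdac4 was instead lowest in pDC, at 176, 1398 and 476, and its second probe set at 122, 422 and 236 had the same order, close to background in pDC. Hdac9 read 26014, 15098 and 13106, brightest in pDC at 1.72-fold and 1.98-fold. Hdac7 was dim, at 178, 219 and 127. The class I enzymes, with Hdac1 and Hdac2 of the nuclear corepressor complexes among them, stayed under 2-fold in every pair, as Hdac7 and Hdac9 did. Hdac1 read 26105, 30015 and 27302. Hdac2, its partner in the same complexes, read 17045, 21444 and 24341. Hdac8 read 252, 252 and 301 and stayed level near background. Hdac3, of the NCoR complexes, read 7064, 3565 and 4992, 1.98-fold higher in pDC than in CD11b+ cDC. In class IIb, Hdac6 read 1222, 2782 and 3595, lowest in pDC. Hdac10, a polyamine deacetylase, read 5450, 3556 and 1980, in the opposite order. Hdac11, the class IV enzyme, read 863, 372 and 2421, brightest in CD8+ cDC and dimmest in CD11b+ cDC. A second probe set at 696, 308 and 923 had the same order with smaller folds. There CD8+ cDC exceeded CD11b+ cDC by 2.99-fold and pDC by 1.33-fold, the latter under 2-fold. Over the 11 genes, 2 were higher in pDC and 2 in CD11b+ cDC, and 2 in pDC and 3 in CD8+ cDC in the second pair. Either way these are 36.4% and 45.5%, beside 29.3% and 30.8% of all genes. Among corepressor subunits, Rcor3, a partner of Kdm1a, read 14817, 3315 and 2504, highest in pDC. Mta3, of the NuRD complex, read 9104, 28169 and 10661, highest in CD11b+ cDC. In the first pair 1 of 18 was higher in pDC and 2 in CD11b+ cDC, 16.7% beside 29.3%.

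Of the sirtuins, NAD-dependent deacylases, the mitochondrial Sirt3 and Sirt5 were higher in pDC and Sirt1, Sirt2 and Sirt7 stayed under 2-fold. These 2 of 6 measured are 33.3% in both pairs with pDC, beside 29.3% and 30.8% of all genes. In the cDC pair 0 differed, beside 20.1%. Sirt3, the main mitochondrial deacetylase, read 10520 in pDC, 2999 in CD11b+ and 2698 in CD8+ cDC on its single probe set. Sirt5, a desuccinylase, read 937, 312 and 442, with a second probe set at 129 in pDC and background elsewhere. Sirt4 was dim, at 262, 253 and 173. Sirt1, the best studied nuclear member, read 8892, 11420 and 12172. Sirt2, mainly cytoplasmic, read 6943, 8233 and 10019. Sirt7, a nucleolar protein, read 38031, 43796 and 44749. These 3 were lowest in pDC, by less than 2-fold.

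Among 7 measured arginine methyltransferases, Prmt2 alone passed 2-fold. It did so in both pairs with pDC, 14.3% beside 29.3% and 30.8% of all genes. In the cDC pair 0 did, beside 20.1%. Prmt2 read 7614 in pDC, 3638 in CD11b+ and 3776 in CD8+ cDC on a probe set whose suffix marks possible cross-hybridisation, and 2397, 1903 and 1312 on the other. Prmt1, the main enzyme of the class, read 7188, 9767 and 13035. Prmt5, which makes symmetric dimethylarginine, read 3794, 3492 and 3106, without a 2-fold difference. Of 6 bromodomain genes, 1 was higher in pDC than in each other subset, 16.7% beside 29.3% and 30.8% of all genes. In the cDC pair 0 differed, beside 20.1%. The 1 gene was Brd3, a BET family reader of acetylated histones. It read 4352, 1438 and 1518, and all 4 of its measured probe sets were brightest in pDC. Brd2, of the same family, read 8894, 7892 and 8894. Brd1, a scaffold of acetyltransferase complexes, read 19746, 9907 and 10881, 1.99-fold and 1.81-fold toward pDC.

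Of 9 measured CHD remodeller genes, 11.1% differed between pDC and CD11b+ cDC, 33.3% between pDC and CD8+ cDC and 22.2% in the cDC pair. Over all genes the shares were 29.3%, 30.8% and 20.1%. Chd3, a NuRD ATPase, was lower in pDC at 2430 beside 7799 in CD11b+ cDC and 4972 in CD8+ cDC, whereas its paralog Chd4 was level at 6668, 7275 and 6678. Chd6 read 6621, 6688 and 2171. Chd9 read 9774, 12711 and 4132, so both were lowest in CD8+ cDC. A second Chd9 probe set at 655, 857 and 407 had the same order. Another, dimmer, read 427 in pDC and background in the others. Chd7, mutated in CHARGE syndrome, read 1040, 2013 and 1963, just under 2-fold, and its second probe set at 466, 1677 and 1743 was 3.60-fold and 3.74-fold lower in pDC. Of the other remodeller genes, Baz1a, an ISWI partner, read 12996, 43248 and 46289, lowest in pDC. Rad54l2 read 2969, 708 and 478, highest in pDC. Hells, a remodeller needed for DNA methylation in dividing cells, read 1218, 6247 and 23320, lower in pDC as the cell cycle genes were. In the cDC pair it was 3.73-fold higher in CD8+ cDC. There 0 of 29 cell cycle genes were higher in CD8+ cDC and 5 were lower, with a median of -0.47 (log2). The part of those genes in its value was not tested. Of the 18 other remodeller genes measured, 1 was higher in pDC and 5 in CD11b+ cDC in the first pair, 33.3% beside 29.3% of all genes.

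The Smarc genes, most of them core SWI/SNF subunits, differed little. Of 11 measured Smarc genes, 0 differed 2-fold between pDC and CD11b+ cDC, where 29.3% of all genes did. Their median absolute difference was 0.14 (log2) beside 0.52 for all genes, the smallest of the 12 families in that pair. In the other pairs it was 0.26 and 0.23, and other families had smaller values. Smarca4, the ATPase Brg1, read 33803 in pDC, 28657 in CD11b+ and 26891 in CD8+ cDC, and the core subunit gene Smarcb1 9978, 10407 and 10877. The exception at the brightest probe sets was the alternative ATPase gene Smarca2, encoding Brm, which read 37474, 65978 and 18522, 3.56-fold higher in CD11b+ than in CD8+ cDC. Its second probe set read 143 in CD11b+ cDC and background in the others. A second Smarcal1 probe set, at 439, 1340 and 432, was 3.05-fold higher in CD11b+ cDC than in pDC and 3.10-fold higher than in CD8+ cDC. Of 12 measured partners outside the Smarc names, 4 were higher in pDC than in CD11b+ cDC, including Bcl7a (6883, 1450 and 733) and Bcl11a (66022, 27599 and 15213), the latter also a pDC transcription factor. None was lower in pDC than in CD11b+ cDC, and 1, Phf10, was lower than in CD8+ cDC. Either way the first pair had 33.3%, near the 29.3% of all genes.

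The ARID genes, some of them SWI/SNF subunits and others separate DNA-binding proteins, held the widest range. Arid1a, a SWI/SNF subunit, read 10919, 15390 and 11027. Its paralog Arid1b read 7135, 6532 and 6718, nearly level. A second Arid1a probe set, at 3686, 8342 and 2432, was 2.26-fold and 3.43-fold higher in CD11b+ cDC. Arid2, of the PBAF form of SWI/SNF, read 12048, 12432 and 23949, 1.99-fold and 1.93-fold toward CD8+ cDC. Arid4a, of the Sin3 complex, read 24333, 27426 and 53707, also highest in CD8+ cDC. Arid5a, an RNA-binding stabiliser of inflammatory transcripts, read 4319 in pDC, 514 in CD11b+ and 597 in CD8+ cDC on its single probe set. Its relative Arid5b, a cofactor of the demethylase Phf2, read 3708, 4802 and 399 and was low in CD8+ cDC alone. The second Arid5b probe set read 230 in pDC, 274 in CD11b+ and background in CD8+ cDC. Arid3b read 1059, 333 and 1321, lowest in CD11b+ cDC, and Arid3a, a B lineage factor, was above background in pDC only, at 146.

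**Figure D5:**
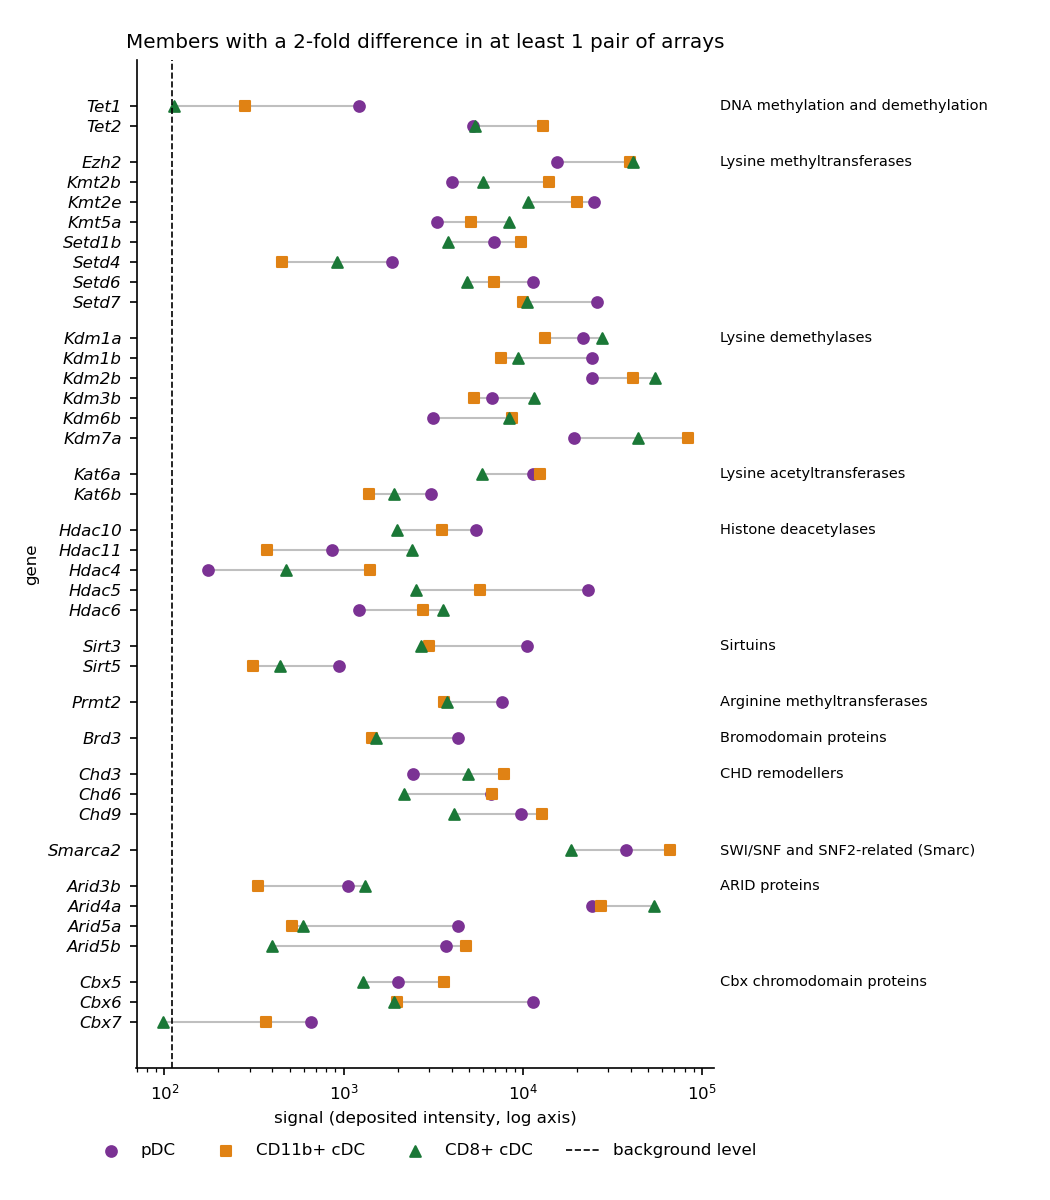
Signals (log axis, horizontal) of the 38 members with a 2-fold difference in at least 1 pair, by family, on the pDC (circles), CD11b+ cDC (squares) and CD8+ cDC (triangles) arrays; the dashed line is background. Circles lie far right for Hdac5, Cbx6, Arid5a, Sirt3 and Kdm1b and far left for Hdac4, Kdm7a, Ezh2 and Kdm6b, and the Arid5b triangle stands alone at 399.

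The agreement of probe sets gives the only internal measure of error. Of 68 members with a second measured probe set, the differences of the first and second varied with an SD of 0.61 (log2) between pDC and CD11b+ cDC. The SD was 0.72 between pDC and CD8+ cDC, and 0.64 in the cDC pair. Among members called at the first probe set, the second gave the same call for 6 of 12, 8 of 18 and 5 of 12. No member had probe sets 2-fold apart in opposite directions.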

How the data were processed

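Total RNA of 3 sorted cell types was hybridised to 1 array each. The deposited intensity of each probe set is linear. The authors made these intensities with Microarray Suite 5 (MAS5), per the submitters' processing notes, and no source used here names a version, target value or further scaling, though the distributions of the 3 arrays nearly coincide. Scanner files and detection calls were not used here.

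Probe sets were named from the platform annotation. All 123 member symbols matched GRCm38.p6 by gene number. Background was the 95th percentile of 87 sensory receptor probe sets on the array where it was highest. Values were raised to that level, log2 was taken, and each gene was read at the probe set of highest mean log2. Genes were named by rule: up to 10 called members per pair and direction, members 4-fold apart from both other arrays, all Tet, Dnmt3, Ezh, Hdac, Sirt and Cbx genes, of other families up to 4 of the widest and 2 of the narrowest range, and up to 4 partners per list and direction. Paralogs and members just under 2-fold were added after their values were seen. Promoter windows and gene coordinates are from RefSeq. Members and lists were chosen with earlier results of these data known. The calling rule was run on simulated data with less noise than the probe sets show and with 4-fold changes in bright genes only. That run checks the code and cannot tell how reliable calls near 2-fold are. With 1 array per type, the number of arrays limits the precision. Alternatives were scaling, background, floor, probe set and fold. Python 3.11.15 with pandas 2.3.3 was used.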

Additional observations from a re-analysis of the deposited data

Results flagged for a closer look

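A signal was present in probe sets that the comparisons do not use. Of 8 probe sets that the annotation assigns to several genes, with at least 1 name matching the rule, 6 were above the background level of 111. Their signals ran from 138 to 63258 in pDC, from 136 to 75471 in CD11b+ cDC and from 137 to 50488 in CD8+ cDC. No gene is named from them.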

How the results depend on the processing

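With 1 array per cell type nothing could be left out. No paired analysis was possible because no group has a second array. Of 69 differences between pairs called for single members, 69 were kept without the floor, 67 with the background level doubled, 65 with the 99th percentile as background (412), 51 with spike-in scaling, 51 with the mean over probe sets and 44 at the second probe set. Tet1 turned at its second probe set, to -0.05 (log2, pDC minus CD8+ cDC) and 0.06 (CD8+ minus CD11b+ cDC). With spike-in scaling Kdm1a (-0.00) and Setd4 (-0.03) turned in the cDC pair. Counts that moved with spike-in scaling were 17 higher in CD11b+ cDC than in pDC (8 as deposited), 47 higher in pDC than in CD8+ cDC (19), 0 the other way (10), 1 higher in CD8+ than in CD11b+ cDC (5), 63 the other way (13) and 3 members 4-fold below (1). Members 4-fold below were 2 with the mean over probe sets and 0 at the second probe set, and those higher in CD8+ than in CD11b+ cDC were 3 and 3. At 1.5-fold the counts were 27 and 17 (pDC and CD11b+ cDC), 37 and 21 (pDC and CD8+ cDC) and 10 and 26 (CD8+ and CD11b+ cDC). At 3-fold they moved to 4 higher in CD11b+ cDC than in pDC, to 8 and 0 for pDC and CD8+ cDC and to 2 and 5 for the cDC pair, while 10 stayed higher in pDC than in CD11b+ cDC. The cause of the spike-in difference was not tested.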

Other observations

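Of 13 measured partners of the heterochromatin readers, 1 was higher in pDC and 2 in CD11b+ cDC in that pair, and against CD8+ cDC 2 were higher in pDC and 3 lower. Either way these are 23.1% and 38.5%, beside 29.3% and 30.8% of all genes. Trim24, a bromodomain coregulator outside the Brd names, had a signal of 13756 in pDC against 5206 for CD11b+ and 4539 for CD8+ cDC. Chaf1b, a subunit of the chromatin assembly factor of replicating cells, read 218, 1220 and 1085 in that order. Hmgb2, a DNA-bending protein abundant in dividing cells, read 22949, 96053 and 85411. Both were lower in pDC, as the cell cycle genes were, and the part of those genes in these values was not tested. Lbr, the lamin B receptor, read 55611, 51927 and 21177 and was lowest in CD8+ cDC. Morc2a, a silencing ATPase, read 3950, 6935 and 14178 and was highest there. Trim28, the corepressor that recruits Setdb1, read 24649, 34322 and 29922, under 2-fold in every pair.

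Markers of lymphoid cells were mixed. Of 5 NK cell markers, Ncr1, Prf1 and Eomes lay at background on every array, while Klrd1 read 96243 in pDC, 83389 with CD11b+ and 4413 with CD8+ cDC, and Gzma read 338, 695 and 336. Of 7 B cell markers, Cd79a, Pax5 and Fcer2a lay at background. Ighm, the immunoglobulin mu chain, read 171513, 142572 and 50809. Ms4a1, Cd79b and Cr2 had the values given with the other markers. Of 7 plasma cell markers, Tnfrsf17 lay at background on every array. Mzb1 read 47739, 249 and 89.2 and Sdc1 read 3355, 91.0 and 96.9, highest in pDC. Jchain read 7870, 14060 and 957. Xbp1, Prdm1 and Irf4 were above background on every array.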
